A study of Mus musculus with 6 samples.

Results

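The genes of the ATF4 arm of the integrated stress response were examined in hind limb skeletal muscle that lacks Baf155. They are the transcription factors *Atf4* and *Ddit3* and 8 of their known targets, *Asns*, *Psat1*, *Trib3*, *Chac1*, *Ddit4*, *Sesn2*, *Fgf21* and *Gdf15*. The 10 members were chosen by name, with earlier results of these data known, and all 10 were found among the 20632 genes of the deposited table. The mice were C57BL/6 males aged 3 months that had not been exercised. Baf155 ΔMF mice (Baf155 -/- in the labels) carried floxed *Baf155* alleles and an *MCK*-Cre transgene, and Baf155 WT mice (given as wild type) were their floxed controls. The *MCK* promoter drives Cre in muscle fibers and in the heart, so the other cells of the muscle keep the gene. Each of the 6 libraries (3 per genotype) was made from whole hind limb muscle of 1 mouse (TA, EDL, GA, SOL and Q, from the tibialis anterior to the quadriceps). The comparison asks whether this stress program differed between the genotypes at rest.

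The integrated stress response begins when one of the kinases PERK, GCN2, PKR or HRI phosphorylates the translation factor eIF2. Protein synthesis then slows, while the ATF4 mRNA is translated more, so much of the control of ATF4 acts on its protein and not on its transcript. ATF4 binds with C/EBP partners to composite elements near its target genes and turns on amino acid synthesis and transport, its partner CHOP (*Ddit3*), and feedback regulators. In skeletal muscle the program is best known from mitochondrial disease, where the hormones FGF21 and GDF15 are released from the stressed fibers.

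A composite element with the letters TGATGNAA, read on both strands, was searched from 250 bases before to 50 bases after the annotated start of each gene (RefSeq, GRCm38.p6). All 10 members matched this table, and 4 of them held the element, while 4.51% of all 27025 genes with such a window did. The stretches of 30 bases around the 4 matches are shown here. They have the element in common because the search required it. Capitals mark the element, which lies on the reverse strand in *Chac1*, *Fgf21* and *Trib3*.
*Chac1* (chr2:119351038-119351067, plus strand): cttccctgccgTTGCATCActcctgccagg
*Fgf21* (chr7:45615611-45615640, minus strand): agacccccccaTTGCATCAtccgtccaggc
*Trib3* (chr2:152344028-152344057, minus strand): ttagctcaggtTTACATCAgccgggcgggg
*Asns* (chr6:7693214-7693243, minus strand): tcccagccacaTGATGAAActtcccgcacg

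*Chac1* and *Fgf21* shared the same 8 letters, the reverse complement of TGATGCAA, which occurred in 1.03% of all genes with a window. In *Chac1* the element began 193 bases before the start site, in *Fgf21* 139 bases and in *Asns* 23 bases before it, and in *Trib3* it began at base 15 of the transcript. The letters were not found in the windows of *Atf4*, *Ddit3*, *Gdf15*, *Ddit4*, *Sesn2* and *Psat1*. These RefSeq start sites can differ from those of GENCODE M21, which gives the gene coordinates further on. The windows of *Psat1* (chr19:15925010-15925309 and chr19:15924573-15924872) lie well inside its GENCODE M21 span (15904678 to 15947337). For *Chac1*, the GENCODE M21 start (119351229) lies within the region printed next. Because *Chac1* carried the largest difference among the members tested (given below), the 250 bases before its start site (chr2:119350992-119351241, plus strand) are printed here with the element in capitals.
*Chac1* upstream: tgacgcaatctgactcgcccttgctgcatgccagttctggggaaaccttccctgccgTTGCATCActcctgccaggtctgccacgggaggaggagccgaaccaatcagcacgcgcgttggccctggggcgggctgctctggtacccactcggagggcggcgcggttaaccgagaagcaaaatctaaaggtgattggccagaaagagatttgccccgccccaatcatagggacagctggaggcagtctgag

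The libraries held between 8426022 and 12469335 counts, and levels are given as CPM, in which TMM factors and library totals put the mice on one scale. The smallest level taken as measurable, 3 counts, was 0.230 to 0.351 CPM across the mice, which covers counting error only. The targeted gene *Smarcc1*, which encodes Baf155, read at 16.96 to 23.4 CPM in control mice and fell to 6.54 to 7.72 CPM in Baf155 ΔMF mice (log2 fold change -1.49, adjusted p = 0.00907 from edgeR). The muscle fiber genes *Acta1*, *Ckm* and *Myh4* were abundant in every library. Sample titles carry the prefixes MS13 (1 Baf155 WT and 2 Baf155 ΔMF mice), MS15 (the other 2 Baf155 WT mice) and MS14 (the other Baf155 ΔMF mouse), whose meaning the labels do not give. In the other mice, title prefix and genotype cannot be told apart, so values within MS13, which allow no test, are given beside the results. The MS15 mice stood apart on the first principal component (43.3% of the variance), at 22.52 and 24.98 against -17.1 to -1.56 for the other 4 mice. They were also the highest in the summed markers of macrophages and adipocytes, as described further on. In RNA from whole muscle, fewer cells of a type and less RNA per cell cannot be told apart.

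Among the 10 members, *Chac1* separated the genotypes most clearly, with a level in Baf155 ΔMF muscle at 0.371 of that in Baf155 WT, while *Atf4* itself, *Ddit3*, *Asns* and *Psat1* had overlapping levels. Enough counts for the test were found for 7 members. *Trib3*, *Fgf21* and *Gdf15* had too few. Of the 7, 0 had an adjusted p under 0.05 in edgeR, beside 0.0248% of the 12116 genes tested. With DESeq2 the count was 1 (*Chac1*), and with limma-voom it was 0. At an unadjusted p under 0.05 there were 2 members, *Chac1* and *Ddit4*, both of them also under 0.01 and both lower in Baf155 ΔMF muscle. Of all genes tested, 7.95% had an unadjusted p under 0.05, 1.54% had one under 0.01, and 0.990% had one under 0.01 and were lower. All 3 mice of one genotype lay beyond all 3 of the other in 2 of the 7 members (*Chac1* lower, *Sesn2* higher), and in 10.8% of all genes tested. The median log2 fold change was -0.13 over the 7 members and -0.00095 over all genes tested, and 5 of the 7 members had a negative value.

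Per kilobase of annotated exon, the order of mean levels in Baf155 WT muscle was *Atf4* (87.4 CPM per kb), *Chac1* (51.0), *Ddit3* (6.91), *Ddit4* (4.30), *Asns* (0.583), *Sesn2* (0.555), *Psat1* (0.470), *Trib3* (0.286), *Gdf15* (0.0459) and *Fgf21* (0.0341). The ranges of *Atf4*, *Chac1* and *Ddit3* did not overlap each other among the Baf155 WT mice. Those of *Ddit3* and *Ddit4* did, as did those of the neighbors from *Asns* to *Trib3*, so their order is within the spread between mice. In Baf155 ΔMF muscle the first 4 genes kept this order, with 79.7, 18.9, 6.38 and 2.31 CPM per kb. *Sesn2* (0.804) then stood before *Asns* (0.608), *Psat1* (0.469) and *Trib3* (0.443).

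**Figure D1:**
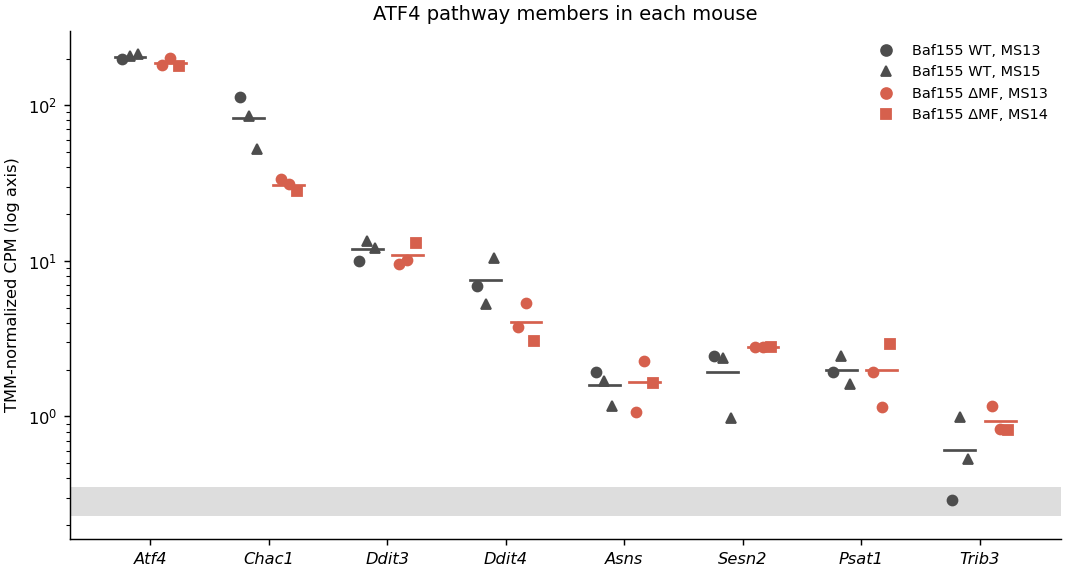
Level of 8 members in each mouse as TMM-normalized CPM on a log axis. Points are mice (shape gives the title prefix), bars are the means of 3 mice per genotype, and the gray band is the level of 3 counts across libraries (0.230 to 0.351 CPM). *Chac1* lies between 52.3 and 113 CPM in Baf155 WT and between 27.9 and 33.7 CPM in Baf155 ΔMF mice, while *Atf4* overlaps. *Fgf21* and *Gdf15*, with at most 2 counts in a mouse, are left out.

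*Chac1* encodes an enzyme that degrades glutathione and is a target of ATF4 and CHOP. It lies on chromosome 2 from 119351229 to 119354381 (GRCm38, GENCODE M21), with no overlapping gene. The Baf155 WT libraries held 1164 (MS13), 1109 and 586 counts (MS15), which are 113, 84.9 and 52.3 CPM. The Baf155 ΔMF libraries held 316, 299 (MS13) and 239 counts (MS14), which are 33.7, 31.0 and 27.9 CPM. The highest Baf155 ΔMF mouse was under the lowest Baf155 WT mouse, and the MS13 Baf155 WT mouse was the highest of all. The spread was wide in Baf155 WT muscle (coefficient of variation 36.5%) and narrow in Baf155 ΔMF muscle (9.38%).

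Mean *Chac1* was 83.4 ± 30.4 CPM for Baf155 WT against 30.9 ± 2.90 CPM for Baf155 ΔMF (SD, n = 3 each). The log2 fold change was -1.43 (standard error 0.22, 95% interval -1.92 to -0.94), a level 2.69-fold lower in Baf155 ΔMF muscle. The unadjusted p was 5.18e-05, the eighth smallest of all genes tested, and the adjusted p was 0.0785 from edgeR, so it did not pass 0.05 over all genes. Within MS13 the log2 fold change was -1.80. Over 15 alternatives it ranged from -1.68 to -1.15, and the adjusted p ranged from 1.2e-08 (DESeq2) to 0.657 (robust edgeR fit). The adjusted p was under 0.05 in 5 of them, including the fits without the MS13 Baf155 WT mouse (0.00094) or without the Baf155 WT mouse MS15-3 (0.00202) and the fit with MS13 as a covariate (0.00471). The paralog *Chac2*, a related enzyme, had 16.5 ± 0.974 and 16.2 ± 1.93 CPM, a log2 fold change of -0.03 (adjusted p = 0.954 from edgeR).

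*Atf4*, the transcription factor at the center of the response (chromosome 15 from 80255184 to 80257541), was the most abundant member. It read at 198 (MS13), 208 and 213 CPM in the Baf155 WT mice and 183, 201 (MS13) and 180 CPM in the Baf155 ΔMF mice. The genotypes overlapped by 1 mouse, since the second MS13 Baf155 ΔMF mouse lay above the MS13 Baf155 WT mouse. The log2 fold change was -0.13 (95% interval -0.33 to 0.06, adjusted p = 0.684 from edgeR), so the interval of the ratio ran from 0.796 to 1.05. Within MS13 the log2 fold change was -0.04.

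*Ddit3* encodes CHOP, a partner and target of ATF4 that is known for its role in cell death under prolonged stress (chromosome 10 from 127290829 to 127293753). Its level was 10.01 (MS13), 13.5 and 12.0 CPM in the Baf155 WT mice and 9.61, 10.2 (MS13) and 12.98 CPM in the Baf155 ΔMF mice. In both genotypes the MS13 mice were the lowest. The log2 fold change was -0.13 (95% interval -0.47 to 0.22, adjusted p = 0.826 from edgeR), and it was -0.02 within MS13.

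**Figure D2:**
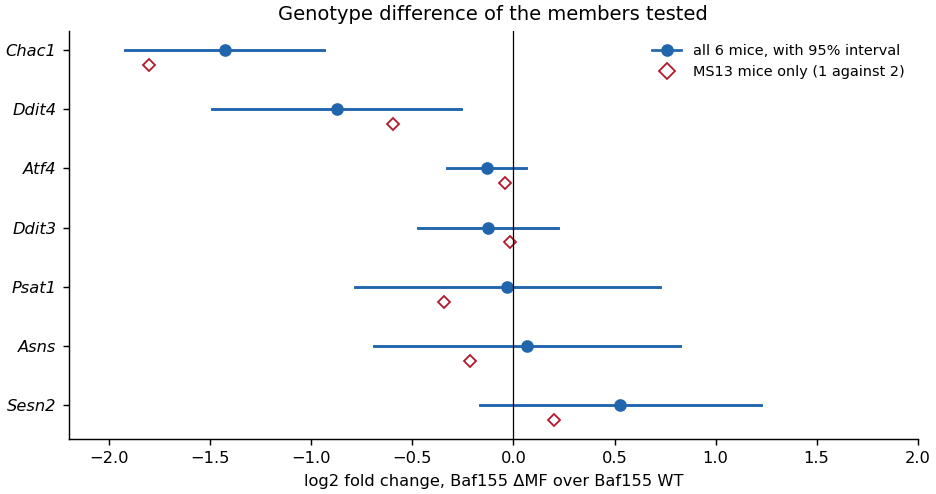
Log2 fold change of Baf155 ΔMF over Baf155 WT for the 7 members tested. Circles and lines are the edgeR estimate and its 95% interval over all 6 mice, and diamonds are the ratio of mean CPM within MS13 (1 mouse against 2). The intervals of *Chac1* (-1.92 to -0.94) and *Ddit4* (-1.49 to -0.26) lie below 0, and those of the other 5 span it.

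The genes that act upstream of ATF4 gave 0 unadjusted p-values under 0.05. Of 7 genes for the eIF2 kinases and their activators, 0 had an unadjusted p under 0.05, and their log2 fold changes lay between -0.20 and 0.10. *Eif2ak1* (HRI, the heme-regulated kinase) had a log2 fold change of 0.01, *Eif2ak2* (PKR, activated by double-stranded RNA) of -0.20, *Eif2ak3* (PERK, the kinase of the endoplasmic reticulum) of 0.10 and *Eif2ak4* (GCN2, the sensor of amino acid lack) of 0.04. Their adjusted p-values from edgeR were 0.972, 0.779, 0.847 and 0.930. Of 10 genes for eIF2, its exchange factor eIF2B and its phosphatase, 9 had a negative log2 fold change, with a median of -0.04, and 0 had an unadjusted p under 0.05. The feedback phosphatase subunit *Ppp1r15a* (GADD34) averaged 29.0 ± 0.0599 CPM for Baf155 WT against 27.5 ± 5.70 CPM for Baf155 ΔMF (SD, n = 3 each). The log2 fold change was -0.07 (adjusted p = 0.890). The smallest p-values of this list were those of the constitutive subunit *Ppp1r15b* (log2 fold change 0.11, adjusted p = 0.748) and of the eIF2B subunit *Eif2b3* (-0.12, adjusted p = 0.793).

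*Ddit4* and *Sesn2* encode stress-induced inhibitors of the growth kinase mTORC1. *Ddit4* (REDD1, chromosome 10 from 59949669 to 59951834) had 6.90 (MS13), 5.28 and 10.4 CPM in the Baf155 WT mice and 3.74, 5.40 (MS13) and 3.04 CPM in the Baf155 ΔMF mice. The genotypes overlapped by 1 mouse each, 5.40 CPM against 5.28 CPM. Its log2 fold change was -0.88 (standard error 0.28, 95% interval -1.49 to -0.26), with an unadjusted p of 0.00979 and an adjusted p of 0.601 from edgeR. Within MS13 it was -0.59. Without the highest mouse, the Baf155 WT mouse MS15-3, it was -0.57 with an unadjusted p of 0.0569 in edgeR. *Ddit4* is also a known glucocorticoid target, and the summed level of 6 glucocorticoid-responsive genes was highest in that same mouse (1088 CPM, against 842 to 953 CPM in the other 5). The most abundant of them, *Tsc22d3* (423 CPM) and *Sgk1* (387 CPM), carried this sum. *Fkbp5* was also highest in that mouse (28.1 CPM, against 20.2 to 26.9 CPM), while *Klf9*, *Per1* and *Zbtb16* were higher in other mice. The part of these genes in the result was not tested.

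*Sesn2* (sestrin 2, chromosome 4 from 132492032 to 132510501) held 25, 31 and 11 counts in the Baf155 WT libraries, which are 2.43 (MS13), 2.37 and 0.982 CPM. The Baf155 ΔMF libraries held 26, 27 and 24 counts, which are 2.78, 2.80 (MS13) and 2.81 CPM. All 3 Baf155 ΔMF mice lay above all 3 Baf155 WT mice, and 1 low Baf155 WT mouse (MS15-3) made up most of the gap. For *Sesn2* the log2 fold change was 0.53 (95% interval -0.17 to 1.23, adjusted p = 0.656 from edgeR). Within MS13 it was 0.20, and without MS15-3 it was 0.22. A same-strand transcript, *Gm12981*, overlaps *Sesn2* in the annotation, so reads could be shared.

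The paralogs *Ddit4l*, *Sesn1* and *Sesn3* belong to the same families of mTORC1 regulators. *Ddit4l* was much more abundant than *Ddit4*, with 413 (MS13), 398 and 388 CPM in the Baf155 WT mice and 347, 360 (MS13) and 298 CPM in the Baf155 ΔMF mice. The genotypes did not overlap, and the log2 fold change was -0.25 (unadjusted p = 0.0281, adjusted p = 0.601 from edgeR). *Sesn1* and *Sesn3* had log2 fold changes of -0.11 and -0.14 (adjusted p = 0.823 and 0.820). Of 12 genes for mTORC1 and its regulatory complexes, 0 had an unadjusted p under 0.05, although 11 had a positive log2 fold change, with a list median of 0.08. The largest was 0.28, for *Depdc5*, a subunit of the GATOR1 complex that inhibits mTORC1 (adjusted p = 0.622). *Tsc1*, a subunit of the tuberous sclerosis complex through which REDD1 acts, had 0.15 (adjusted p = 0.661).

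The members that serve amino acid synthesis were low in both genotypes. *Asns*, asparagine synthetase (chromosome 6 from 7675169 to 7693254), held 20, 22 and 13 counts in the Baf155 WT libraries against 10, 22 and 14 counts in the Baf155 ΔMF libraries. The levels were 1.596 ± 0.399 and 1.66 ± 0.609 CPM (SD, n = 3 each). The genotypes overlapped, and the log2 fold change was 0.07 (95% interval -0.69 to 0.82, adjusted p = 0.961 from edgeR), and the interval of the ratio ran from 0.620 to 1.77. *Psat1*, the aminotransferase of serine synthesis (chromosome 19 from 15904678 to 15947337), had 20, 32 and 18 counts against 18, 11 and 25 counts. Its levels were 2.00 ± 0.424 and 2.00 ± 0.893 CPM, and its log2 fold change was -0.03 (95% interval -0.78 to 0.72, adjusted p = 0.981). The annotation of *Psat1* overlaps the pseudogene *Gm3329* on the other strand. Within MS13 the log2 fold changes were -0.21 for *Asns* and -0.34 for *Psat1*.

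*Trib3*, a pseudokinase that dampens ATF4 signaling (chromosome 2 from 152337422 to 152344032), held 3, 13 and 6 counts in the Baf155 WT libraries against 11, 8 and 7 counts in the Baf155 ΔMF libraries. The levels were 0.607 ± 0.357 and 0.941 ± 0.202 CPM (SD, n = 3 each), with the lowest value at 3 counts in the MS13 Baf155 WT mouse. The genotypes overlapped, and a two-sided exact permutation test over the 20 assignments of mice gave p = 0.3, where 0.10 is the smallest possible. The paralog *Trib2* had 41.0 (MS13), 31.8 and 33.7 CPM in the Baf155 WT mice and 30.1, 31.0 (MS13) and 27.8 CPM in the Baf155 ΔMF mice. These groups did not overlap, and the log2 fold change was -0.26 (unadjusted p = 0.0490, adjusted p = 0.622 from edgeR). *Trib1* had a log2 fold change of -0.14 (adjusted p = 0.861).

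Of 13 further genes for amino acid and one-carbon synthesis, 12 were tested. A negative log2 fold change was found in 10 of them, with a median of -0.11, and 0 had an adjusted p under 0.05 (0 also in DESeq2 and limma-voom). At an unadjusted p under 0.05 there were 2, both lower, beside 4.60% of all genes tested that were lower at this limit. These were *Pycr1*, the last enzyme of proline synthesis (1.36 ± 0.137 against 0.799 ± 0.0450 CPM, log2 fold change -0.76, adjusted p = 0.611), and *Psph*, the last enzyme of serine synthesis (10.1 ± 1.36 against 7.52 ± 1.17 CPM, -0.43, adjusted p = 0.601). *Pycr1* had only 13 to 17 counts per Baf155 WT mouse and 7 or 8 per Baf155 ΔMF mouse, with no overlap. *Psph* overlapped, and its log2 fold change was -0.08 within MS13, where that of *Pycr1* was -0.68.

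Of 9 amino acid transporters, 7 were tested. *Slc38a2* (SNAT2, a carrier of neutral amino acids that cells raise when starved of amino acids) had 218 (MS13), 198 and 202 CPM in the Baf155 WT mice and 161, 161 (MS13) and 191 CPM in the Baf155 ΔMF mice. The groups did not overlap, and its log2 fold change was -0.27 (unadjusted p = 0.0211, adjusted p = 0.601 from edgeR) and -0.43 within MS13. The next smallest p was that of *Slc3a2*, the heavy chain of several carriers, with a log2 fold change of -0.12 (adjusted p = 0.752). The 12 cytosolic aminoacyl-tRNA synthetases, which ATF4 also controls, had log2 fold changes from -0.12 to 0.11. Of these, 6 were negative and 6 positive, and 0 had an unadjusted p under 0.05. *Tars* (-0.12) and *Sars* (-0.10) had the smallest p-values, with adjusted p-values of 0.703 and 0.735. Among 8 other ATF4 targets, 0 had an unadjusted p under 0.05. The smallest p-values were those of the cell cycle inhibitor *Cdkn1a* (log2 fold change -0.59, adjusted p = 0.627) and the lipoprotein receptor *Vldlr* (0.39, adjusted p = 0.665).

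The hormones *Fgf21* and *Gdf15* were at or below the measurable level in every mouse. *Fgf21* (chromosome 7 from 45613886 to 45615490) had 1 count in the MS13 Baf155 WT mouse and 0 in the other 5 mice. *Gdf15* (chromosome 8 from 70629393 to 70632456) held 0, 1 and 2 counts in the Baf155 WT libraries and 0 in each Baf155 ΔMF mouse. No fold change can be given, and a level under 0.230 to 0.351 CPM in either genotype was not detectable at this depth. The genes for mitochondrial chaperones and proteases, whose protein products respond to the mitochondrial stress in which these hormones are known to rise, had log2 fold changes from -0.24 to 0.11. Of the 8, 0 had an unadjusted p under 0.05. *Clpp*, a matrix protease, had -0.24 (adjusted p = 0.622) and the chaperonin *Hspe1* -0.12 (adjusted p = 0.726). Of the hormone receptors, *Fgfr1* (log2 fold change 0.12, adjusted p = 0.751) and *Ret* (-0.20, adjusted p = 0.751) were tested. *Gfral*, the GDF15 receptor of the brainstem, had 0 counts in all mice. *Klb*, the FGF21 coreceptor, held 5, 10 and 7 counts in the Baf155 WT libraries and 3, 3 and 1 in the Baf155 ΔMF libraries, too few for edgeR. Its levels did not overlap, and the two-sided exact permutation test gave p = 0.1, the smallest possible.

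Among the transcription factors that act beside ATF4, *Atf3* had the lowest ratio. *Atf3*, an early stress factor and ATF4 target (chromosome 1 from 191170296 to 191218039, where the small RNA *Gm24748* lies on the other strand), had 21.5 (MS13), 21.6 and 20.6 CPM in the Baf155 WT mice and 9.93, 10.1 (MS13) and 13.3 CPM in the Baf155 ΔMF mice. All 3 Baf155 ΔMF mice lay well below the Baf155 WT mice, which differed by less than 1 CPM. The log2 fold change was -0.94 (standard error 0.13, 95% interval -1.22 to -0.65), and it was -1.10 within MS13. The unadjusted p was 1.82e-05, the fourth smallest of all genes tested, and the adjusted p was 0.0551 from edgeR. Over the 15 alternatives it ranged from 0.00025 to 0.328 and was under 0.05 in 7 of them, including DESeq2 and limma-voom (0.0425). *Nupr1*, a stress-induced cofactor, had 6.61 (MS13), 8.19 and 7.76 CPM against 4.80, 4.98 (MS13) and 6.55 CPM, without overlap. Its log2 fold change was -0.47 (unadjusted p = 0.0202, adjusted p = 0.601). *Cebpb*, a dimer partner of ATF4, overlapped, with a log2 fold change of -0.43 (unadjusted p = 0.0127, adjusted p = 0.601). The partner *Cebpg* had -0.03 (adjusted p = 0.949), *Atf5* -0.23 (adjusted p = 0.633), *Jdp2* -0.44 (adjusted p = 0.638) and *Jun* 0.06 (adjusted p = 0.881). For the 7 factors together, 6 values were negative and the median log2 fold change was -0.43.

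The parallel arms of the endoplasmic reticulum stress response were described by 13 genes, of which 0 had an adjusted p under 0.05 in edgeR, DESeq2 or limma-voom. At an unadjusted p under 0.05 there were 3, all lower, beside the 4.60% of all genes tested that were lower at this limit. *Xbp1*, the factor spliced by IRE1, had 80.2 (MS13), 81.3 and 79.1 CPM in the Baf155 WT mice and 64.0, 63.9 (MS13) and 70.9 CPM in the Baf155 ΔMF mice. These groups did not overlap, and the log2 fold change was -0.28 (unadjusted p = 0.00790, adjusted p = 0.601). *Hspa5* (BiP, the main chaperone of this compartment) had 214 (MS13), 236 and 250 CPM against 195, 196 (MS13) and 194 CPM. It did not overlap either, with a log2 fold change of -0.26 (adjusted p = 0.601) and -0.13 within MS13. *Pdia6*, a disulfide isomerase, had -0.28 (adjusted p = 0.611) and 0.03 within MS13. The median of the 13 genes was -0.15.

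**Figure D3:**
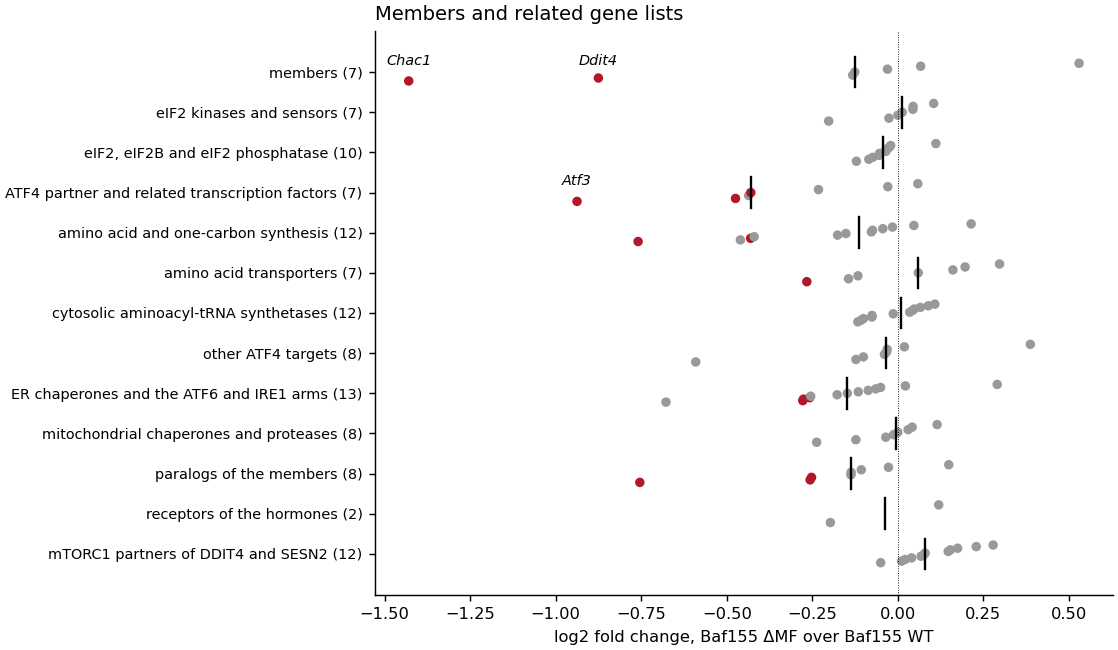
Log2 fold change of Baf155 ΔMF over Baf155 WT for each tested member (top) and each tested gene of 12 related lists, with the number tested in parentheses. Red points have an unadjusted p under 0.05 in edgeR, gray points do not, and black bars are list medians. *Chac1*, *Atf3* and *Ddit4* have the lowest values, and the aminoacyl-tRNA synthetases all lie between -0.12 and 0.11.

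Over the 12 lists, 106 of 112 genes were tested. In edgeR 0 had an adjusted p under 0.05, and in both DESeq2 and limma-voom 1 did (*Atf3*). At an unadjusted p under 0.05 there were 12 genes (12 lower, 0 higher), beside 7.95% of all genes tested (557 lower, 406 higher). The median log2 fold change of the 106 genes was -0.04. The remaining genes at that limit were *Trib2*, *Ddit4l* and *Gdf11* of the paralogs. *Gdf11*, a relative of *Gdf15* that belongs to the myostatin branch, had 8.16 (MS13), 17.98 and 14.01 CPM in the Baf155 WT mice and 9.50, 7.79 (MS13) and 6.67 CPM in the Baf155 ΔMF mice. Its log2 fold change was -0.75 (unadjusted p = 0.0124, adjusted p = 0.601), but 0.08 within MS13, where the genotypes overlapped. Among the 106 genes, the genotypes did not overlap in 10 that were lower and 1 that was higher. Of all genes tested, 10.8% did not overlap (675 lower, 630 higher). The higher gene was the paralog *Mstn* (myostatin), with a log2 fold change of 0.15 (adjusted p = 0.643 from edgeR) and 0.05 within MS13.

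Markers of macrophages were highest in the MS15 mice, which were all Baf155 WT, so title prefix and genotype cannot be told apart there. Their summed level over 7 genes was 240 and 204 CPM in the MS15 Baf155 WT mice, 85.2 CPM in the MS13 Baf155 WT mouse, 80.0 and 78.1 CPM in the MS13 Baf155 ΔMF mice and 124 CPM in the MS14 mouse. All 7 had a negative log2 fold change, from -1.28 to -0.81, with an unadjusted p under 0.05 in edgeR, and the genotypes overlapped in each of them. Within MS13 their log2 fold changes ran from -0.40 to 0.19. Within MS13, the Baf155 WT mouse had a macrophage sum close to that of the Baf155 ΔMF mice, with 113 CPM of *Chac1* against 33.7 and 31.0 CPM and 21.5 CPM of *Atf3* against 9.93 and 10.1 CPM. *Gdf11*, *Pdia6*, *Hspa5*, *Cebpb*, *Psph*, *Nupr1* and *Pycr1* were highest in the MS15 mice, where the macrophage sum was highest too. Of the other related list genes with an unadjusted p under 0.05, *Atf3*, *Xbp1*, *Slc38a2*, *Trib2* and *Ddit4l* did not have both MS15 mice highest. MS13 holds 1 Baf155 WT mouse, and the part of the macrophage markers in the values of any of these genes was not tested. Summed markers of fibro-adipogenic cells (1575 to 1954 CPM in Baf155 WT and 1414 to 2148 CPM in Baf155 ΔMF mice), muscle stem cells (33.7 to 35.8 and 32.8 to 36.6 CPM) and Schwann cells (24.9 to 35.6 and 25.96 to 37.5 CPM) overlapped between the genotypes. Those of muscle fibers (153230 to 196250 and 171340 to 198920 CPM), endothelium (206 to 266 and 265 to 289 CPM) and adipocytes (37.8 to 75.9 and 32.5 to 48.3 CPM) overlapped as well. The endothelial sums did so only through the MS13 Baf155 WT mouse (265.55 CPM) and the MS14 mouse (264.64 CPM). All 5 endothelial genes had a positive log2 fold change, and the genotypes did not overlap in 2 of them. Among the fiber genes they did not overlap in *Myh1* and *Ckm*, which went in opposite directions. The log2 fold changes were 0.49 for *Myh1* (adjusted p = 0.601 from edgeR) and -0.20 for *Ckm* (adjusted p = 0.668). The adipocyte sum was 75.9 and 67.4 CPM in the MS15 mice and at most 48.3 CPM in the other 4. An unadjusted p under 0.05 was found for 2 of 5 endothelial and 2 of 8 fiber genes, all higher, and for 2 of 5 fibro-adipogenic and 1 of 5 adipocyte genes, all lower. Their part in the results was not tested either. The 4 liver markers had at most 3 counts in any library.

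**Figure D4:**
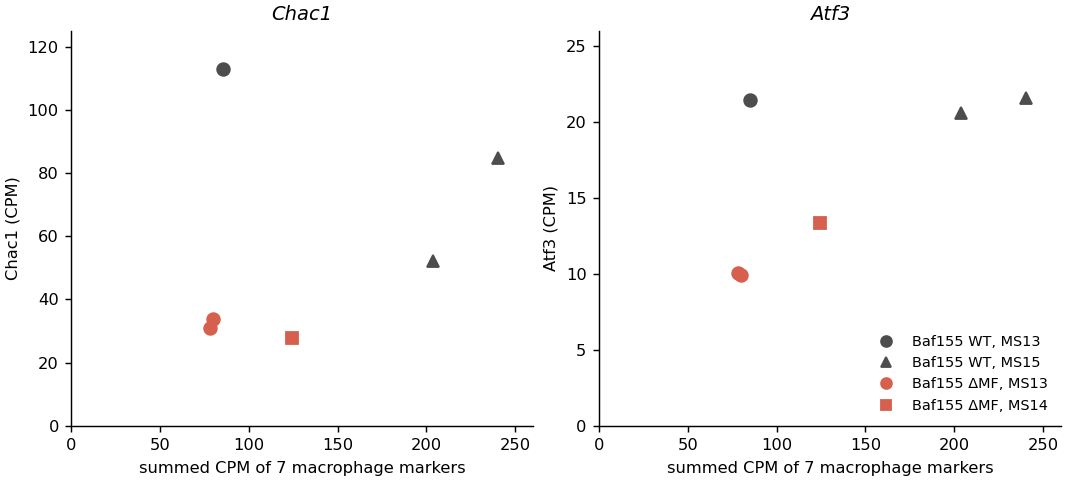
Level of *Chac1* (left) and *Atf3* (right) in CPM against the summed CPM of 7 macrophage markers, with 1 point per mouse, color for the genotype and shape for the title prefix. At a macrophage sum of 78.1 to 85.2 CPM, the MS13 Baf155 WT mouse lies above both MS13 Baf155 ΔMF mice for both genes.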

How the data were processed

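RNA from whole hind limb muscles of 6 mice was sequenced with 1 library per mouse (TruSeq Stranded Total RNA). The submitters' processing notes name CASAVA 1.8.2, cutadapt 1.10, Bowtie2 2.2.7, TopHat2 2.1.1, RSEM 1.2.30 and limma, and the builds mm10 and GRCm38, without roles. The annotation is not given in the sources used here. The authors deposited expected counts per gene symbol without normalization, and each member had whole numbers in all mice. A further column holds the row totals and was not used. Counts were rounded and analyzed in R 4.3.3 with edgeR 4.0.16 (filterByExpr with a minimum count of 10 and total of 15, TMM factors, quasi-likelihood F test without a covariate), and p-values were adjusted over the 12116 genes left by the Benjamini-Hochberg method. Standard errors were taken as the log2 fold change over the root of F. Alternatives were DESeq2 1.42.0, limma-voom (limma 3.58.1), other scalings and filters, a robust fit, a term for MS13, and fits without 1 mouse at a time. The fits were tested on simulated data.

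The members and lists were chosen with earlier results of these data known. Named genes are the members, *Smarcc1*, the eIF2 kinases, *Ppp1r15a*, and list genes with an unadjusted p under 0.05 (or the 2 smallest p-values of a list). Paralogs of members, remaining transcription factors, *Gfral*, *Klb* and the remaining glucocorticoid-responsive genes were added to these once their values were known. So were the immediate early genes *Fos* and *Nr4a1*. *Gcn1* and *Dele1* were found under older symbols. Coordinates are from GENCODE M21, and exon lengths are unions over its transcripts.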

Additional observations from a re-analysis of the deposited data

How the results depend on the processing

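Instead of 0, 1 member (*Chac1*) had an adjusted p under 0.05 with DESeq2, without the filter on low counts and with MS13 as a covariate, and 0 to 1 when 1 mouse was left out. The number with an unadjusted p under 0.01, which was 2, was 1 with limma-voom, the robust fit and MS13 as a covariate, and 1 to 2 when 1 mouse was left out. Over all genes, the 3 with an adjusted p under 0.05 became 17 without the filter, 5 with MS13 as a covariate, 22 with DESeq2, 5 with limma-voom and 0 to 955 without 1 mouse (955 without the MS13 Baf155 WT mouse, and 0 without the Baf155 WT mouse MS15-2 or the Baf155 ΔMF mouse MS13-2, where 451 and 568 genes had an unadjusted p under 0.05). The 187 genes with an unadjusted p under 0.01 became 357 without the filter and 75 to 1412 without 1 mouse.

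The direction turned in 7 of 105 alternative fits of the 7 members, all of them in genes near 0. With MS13 as a covariate the log2 fold changes were 0.0041 for *Ddit3*, -0.027 for *Asns* and 0.14 for *Psat1*. Without 1 mouse *Asns* ranged from -0.24 to 0.31 and *Psat1* from -0.39 to 0.26. *Chac1*, *Ddit4*, *Atf4* and *Sesn2* kept their direction in all 15 alternatives. The cause of these moves was not tested. No paired analysis was possible because the numbers in the sample titles are not matched between genotypes. Depth limits *Fgf21*, *Gdf15* and *Trib3* most, and for *Asns*, *Psat1* and *Sesn2* with 10 to 32 counts per mouse, it leaves wide intervals.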

Other observations

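A pair of gene groups that react to handling and hormones was examined beside the members. Of 6 immediate early genes, 5 were tested and 0 had an unadjusted p under 0.05. *Egr1* had a log2 fold change of 0.52 (adjusted p = 0.734 from edgeR) and *Ier2* of 0.25 (adjusted p = 0.785), and the summed level was 120 to 147 CPM in Baf155 WT and 119 to 159 CPM in Baf155 ΔMF mice. *Nr4a1* carried most of this sum, with 73.1 to 115 CPM in Baf155 WT and 91.3 to 97.1 CPM in Baf155 ΔMF mice. The sum therefore says little about the other genes of the group. *Atf3*, which is often counted with them, was lower in Baf155 ΔMF mice, while this sum overlapped. The part of these genes in the values of *Atf3* was not tested. Of 6 glucocorticoid-responsive genes, *Sgk1*, a kinase of ion transport, had a log2 fold change of -0.26 (unadjusted p = 0.0459, adjusted p = 0.620) and *Tsc22d3* (GILZ) had -0.28 (adjusted p = 0.622), while *Fkbp5*, *Klf9*, *Per1* and *Zbtb16* lay between 0.05 and 0.13.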
